A study of Mus musculus with 12 samples.

Results

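The genes described here are the cytosolic ribosomal protein genes of the mouse, taken by symbol from the protein-coding genes of the RefSeq gene table (large-subunit genes Rpl followed by a number and at most a short suffix, small-subunit genes Rps named in the same way, the stalk genes Rplp0 to Rplp2, and Rpsa). The rule found 84 genes among 21887 protein-coding genes, 52 of the large subunit and 32 of the small subunit, on 19 chromosomes. Of these genes, 80 are autosomal and 4 (Rpl10, Rpl36a, Rpl39 and Rps4x) are X-linked. The same families have 323 entries of pseudogene type in the table, called retrocopies here. A retrocopy is a copy made from reverse-transcribed messenger RNA, and this origin was not checked for the 323. The reference used here lists no exons, so which genes carry introns was not checked. The genes spanned 592 to 11774 bp with a median of 3179 bp, and the retrocopies 200 to 41903 bp with a median of 533 bp.

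The ChIP-seq libraries, sequenced from immunoprecipitated chromatin, were made from spermatogenic cells of mixed-background mice at P18 (postnatal day 18). INO80, the ATPase of a chromatin remodelling complex, was precipitated from wild-type cells. The histone variant H2A.Z, which INO80 complexes can exchange in nucleosomes, was precipitated from Ino80cKO cells, which carry a testis-specific deletion of Ino80 made with Stra8-Cre, and from Ino80WT cells. Stra8-Cre is a recombinase driven by a promoter active in premeiotic germ cells, so other cells of the preparation keep the gene. The 12 libraries form 6 groups of 2, namely these 3 ChIP groups and an input group for each. All groups share the age, the strain background and chromatin cut with micrococcal nuclease before precipitation.

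The lists hold 18139 INO80 peaks with a median width of 678 bp, 26199 H2A.Z peaks of 422 bp in the knockout and 33827 H2A.Z peaks of 460 bp in the wild type. Each list stands for both libraries of its group and gives positions alone. No value below therefore has a replicate error or a test, the depth is unknown, and differences between the H2A.Z lists cannot be told apart from differences in depth or in peak calling between them. No value in the lists can show the deletion, and the lists measure no transcripts against which the cell type could be checked.

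A ribosome carries 1 copy of nearly every ribosomal protein in its small or its large subunit, and each protein is typically encoded by a single intron-bearing gene whose messenger RNA starts within a short run of pyrimidines, the TOP motif. These genes are expressed in nearly all cells, and mammalian genomes hold many intronless retrocopies of them. In the male germ line the X chromosome is silenced during meiosis, and a few autosomal copies, among them Rpl10l and Rpl39l, are expressed mainly in the testis.

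INO80 was listed at nearly every autosomal ribosomal protein gene. At 150 bp past the transcription start it covered 84.4% of the 64 genes with a listed start. A peak counted for a gene when at least 1 bp of it lay in the gene or within 1 kb of either end. By this measure 79 of the 84 genes (94.0%) had an INO80 peak, against 60.6% of all protein-coding genes. H2A.Z peaks were listed at 69 genes (82.1%) in the knockout, against 67.3% of all protein-coding genes, and at 77 genes (91.7%) in the wild type, against 70.8% of all. All 3 lists had a peak at 68 of the 84 genes, against 12566 of all 21887 protein-coding genes.

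**Figure D1:**
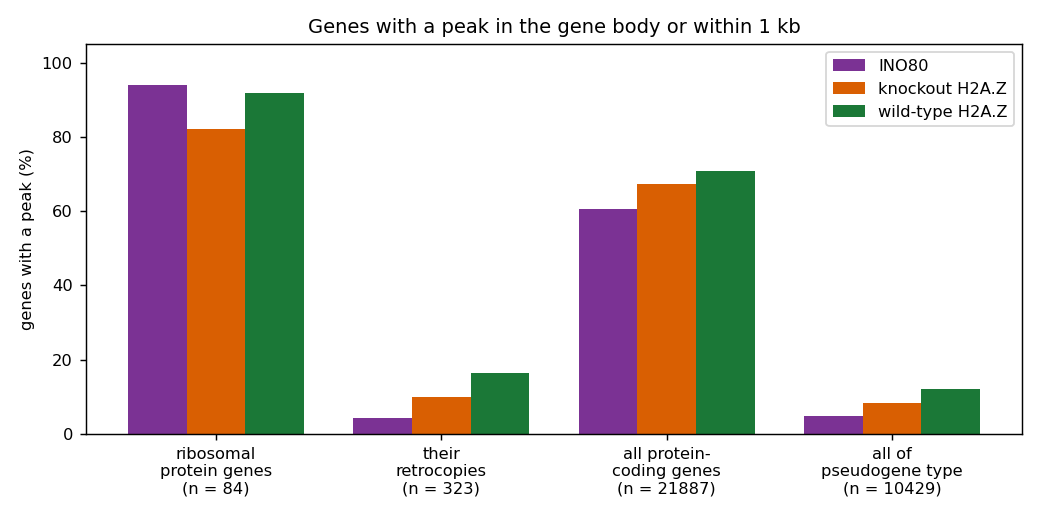
Share of genes with a peak in the gene or within 1 kb (vertical axis, %), as bars for INO80, knockout H2A.Z and wild-type H2A.Z, in 4 sets of genes. The ribosomal protein genes stand at 94.0%, 82.1% and 91.7%, and their retrocopies at 4.33%, 9.91% and 16.4%; there are no error bars because each list stands for a whole group.

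Among the 80 autosomal genes, 79 had INO80 (62.8% of all autosomal protein-coding genes), 68 had knockout H2A.Z (69.6% of all autosomal ones) and 76 had wild-type H2A.Z (73.0% of all autosomal ones). The autosomal gene without INO80 was Rpl32l, a 592 bp gene inside Map7 whose nearest INO80 peak lay 58492 bp away, and H2A.Z was not listed at it in either genotype. Counts were close in both subunits. INO80, knockout H2A.Z and wild-type H2A.Z were listed at 31, 26 and 29 of the 32 small-subunit genes, and at 48, 43 and 48 of the 52 large-subunit genes.

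Many of these genes lie close to others, and 43 of the 84 have another protein-coding gene within 2 kb, whose peaks the window can take in. Of the other 41 genes, 39 had INO80, 36 knockout H2A.Z and 39 wild-type H2A.Z. The same counts over all protein-coding genes without such a neighbour were not made, so these 41 cannot be read against them. When the count was restricted to 1 kb on both sides of the transcription start, for the 64 genes with a start in the RefSeq promoter table, INO80 was at 57 of them (54.8% of all genes with a listed start), knockout H2A.Z at 49 (59.6% of all) and wild-type H2A.Z at 57 (62.7% of all).

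Although they were listed at more genes, the peaks were narrower at the median than those of all protein-coding genes with a peak. The widest INO80 peak of a ribosomal protein gene had a median of 596 bp, against 875 bp over all protein-coding genes with a peak. The medians for H2A.Z were 291 bp against 678 bp in the knockout, and 485 bp against 814 bp in the wild type. Ranked within its own list, the median gene's widest peak stood at the 45.1th percentile for INO80, the 33.4th for knockout H2A.Z and the 52.2nd for wild-type H2A.Z, against 60.3, 70.5 and 75.6 for all protein-coding genes. Width stands in here for the strength of a peak, which the lists do not give. Within the widest 50% of each list, 33 of the 84 genes kept an INO80 peak, and the same count over all genes was not made.

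**Figure D2:**
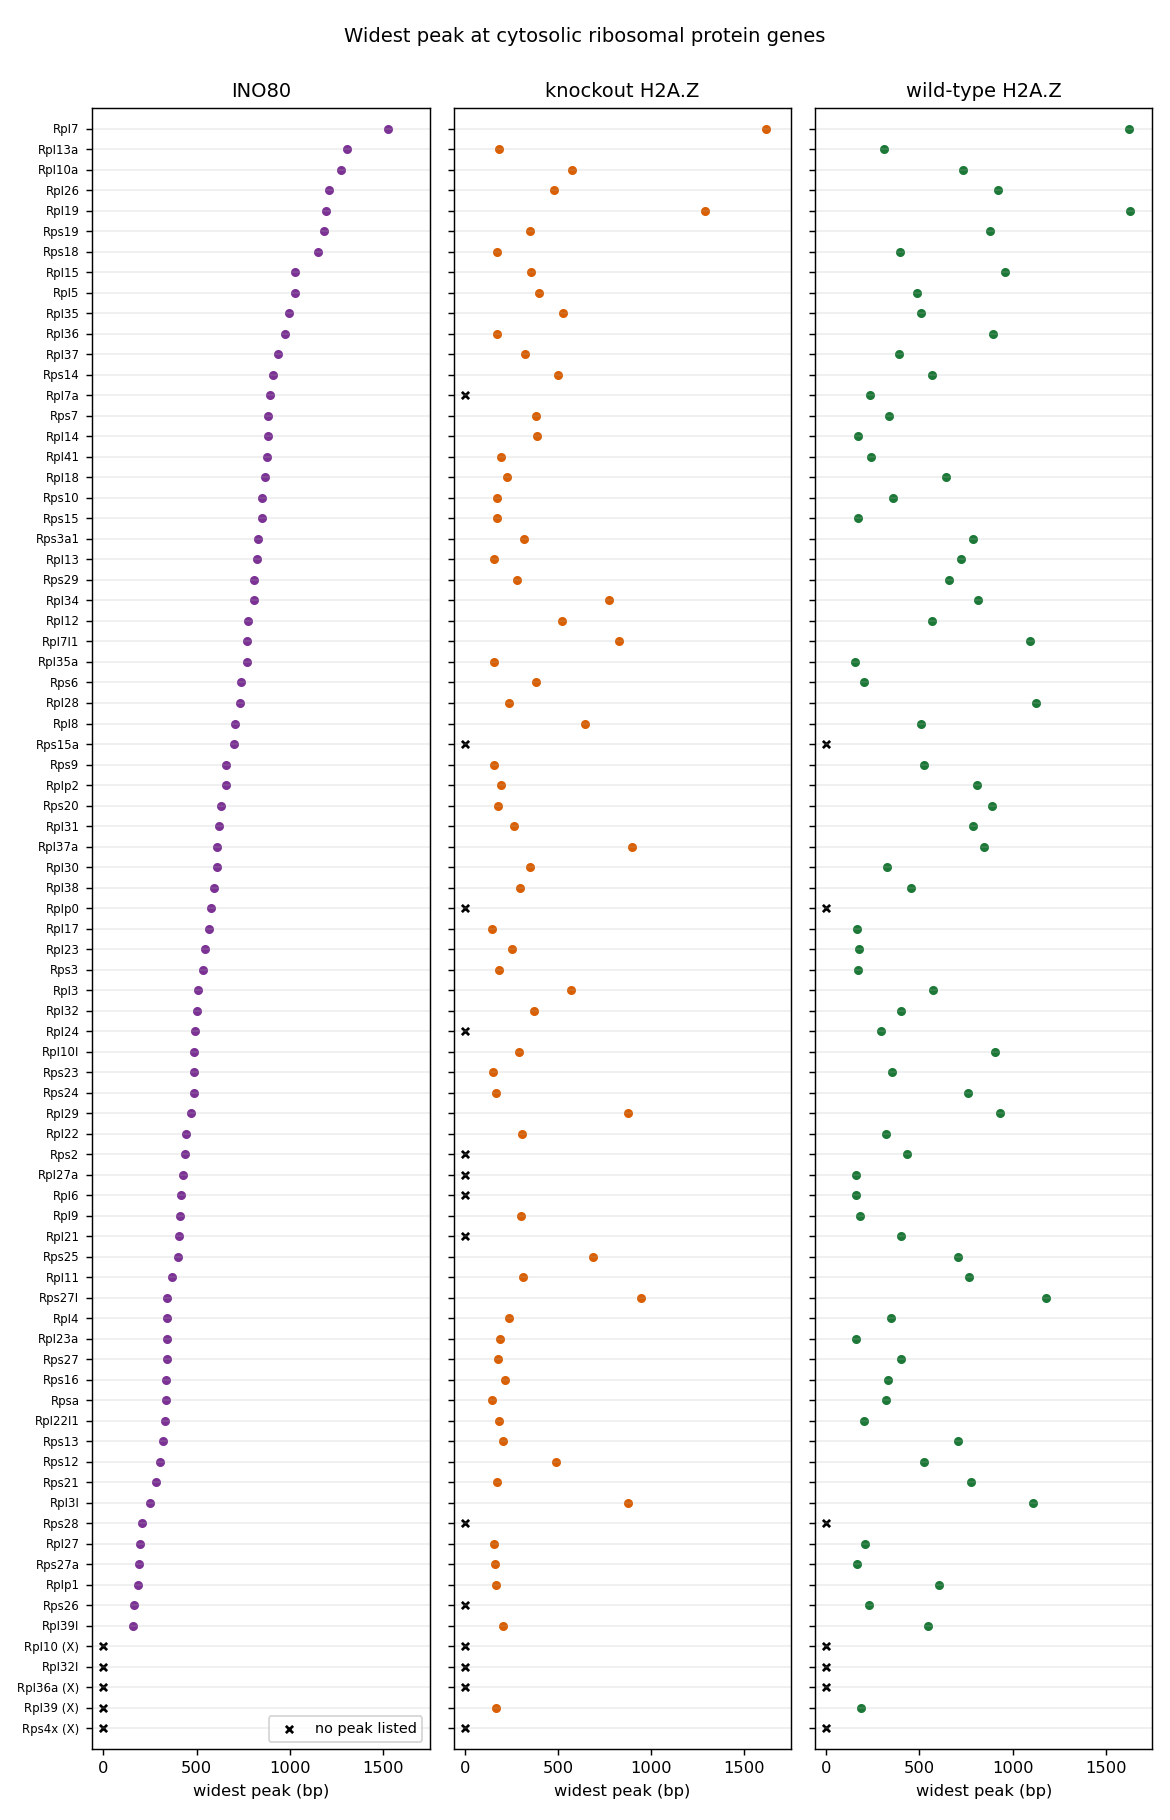
Width in bp of the widest INO80, knockout H2A.Z and wild-type H2A.Z peak (horizontal axes) at 79 of the 84 genes (rows, ordered by INO80 width), with a cross at 0 where no peak was listed and (X) after X-linked genes. INO80 widths run between 157 bp at Rpl39l and 1525 bp at Rpl7, and the widest H2A.Z peaks reach 1615 bp in the knockout and 1628 bp in the wild type.

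The 4 widest INO80 peaks were at Rpl7, Rpl13a, Rpl10a and Rpl26, all of the large subunit. Rpl7 had 1525 bp of INO80, 1615 bp of knockout H2A.Z and 1622 bp of wild-type H2A.Z, but these 3 peaks lay beyond the annotated end of the gene, and reached into the neighbouring gene Rdh10, whose body begins 1449 bp away. Rpl13a, whose protein is also known as a translational repressor in inflammatory cells, had INO80 over 1308 bp (chr7:45128313-45129620), with H2A.Z over 185 bp in the knockout and 311 bp in the wild type. Rpl10a had INO80 over 1274 bp (chr17:28328121-28329394), with H2A.Z over 575 bp in the knockout and 734 bp in the wild type. Rpl26, whose protein also regulates translation of p53, had INO80 over 1211 bp (chr11:68900802-68902012). Of these 4 genes only Rpl26 had no other protein-coding gene within 2 kb.

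The 5 narrowest INO80 peaks were close to the width of a single nucleosome core. They were at Rpl39l (157 bp), Rps26 (162 bp), the stalk gene Rplp1 (184 bp), Rps27a, which encodes a fusion of ubiquitin with a small-subunit protein (192 bp), and Rpl27 (195 bp). Each lay inside its gene. The stalk proteins recruit elongation factors to the ribosome, and INO80 was listed at all 3 of their genes, over 577 bp at Rplp0, 184 bp at Rplp1 and 657 bp at Rplp2. Rplp0 had no H2A.Z peak within 1 kb in either genotype; the nearest lay 1289 bp from the gene in the knockout and 1279 bp in the wild type. Rplp1 had 168 bp of H2A.Z in the knockout and 606 bp in the wild type, and Rplp2 had 197 bp in the knockout and 810 bp in the wild type.

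INO80 without H2A.Z was listed at 3 genes, Rplp0, Rps15a and Rps28. Wild-type H2A.Z was at 96.2% of the ribosomal protein genes with INO80, close to the 97.6% over all protein-coding genes with INO80. At Rps15a INO80 covered 699 bp over the start, while the nearest H2A.Z peak lay 13764 bp from the gene in the knockout and 127001 bp in the wild type. At Rps28 a 209 bp INO80 peak lay upstream of the start, within the neighbouring gene Ndufa7, whose body begins 10 bp from Rps28, and the nearest H2A.Z peak lay 5085 bp away in the knockout and 5009 bp in the wild type. The converse, H2A.Z without INO80, occurred at 1 gene, the X-linked Rpl39. INO80 was thus at 76 of the 77 genes with wild-type H2A.Z, against 12950 of 15503 such genes among all protein-coding genes.

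The position of the peaks was set against the listed transcription start of 64 genes. INO80 covered the base 150 bp past the start at 84.4% of the 64 ribosomal protein genes, against 48.5% of all genes with a listed start. At 500 bp past the start it covered 42.2% of them, against 31.6% of all genes, and at 700 bp 9.38%, against 21.3% of all genes. Over the start itself INO80 was listed at 26 of the 64 genes (40.6%), against 37.3% of all genes. Of the 57 genes with INO80 within 1 kb, 46 (80.7%) had more of it downstream of the start than upstream, against 76.8% of all such genes.

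H2A.Z had a different outline at these genes, with higher cover on both sides of the start than over it. In the wild type it covered 67.2% of the 64 genes at 150 bp past the start (all genes: 55.6%), 37.5% at the start (all genes: 43.6%) and 54.7% at 240 bp before it (all genes: 36.2%). In the knockout the cover was 46.9% at 150 bp past the start (all genes: 50.6%), 12.5% at the start (all genes: 35.6%) and 39.1% at 240 bp before it (all genes: 29.3%). This upstream point lies near the highest upstream cover of these genes in the knockout. At 150 bp before the start, cover was 21.9% in the knockout (all genes: 30.4%) and 43.8% in the wild type (all genes: 38.1%). At 500 bp past the start H2A.Z covered 4.69% of the genes in the knockout (all genes: 26.2%) and 10.9% in the wild type (all genes: 31.4%). Thus INO80 reached further into these genes than H2A.Z did. Of the 27 genes with INO80 at 500 bp past the start, 23 (85.2%) had no wild-type H2A.Z there, against 28.1% of the 5519 genes of the whole annotation with INO80 there.

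**Figure D3:**
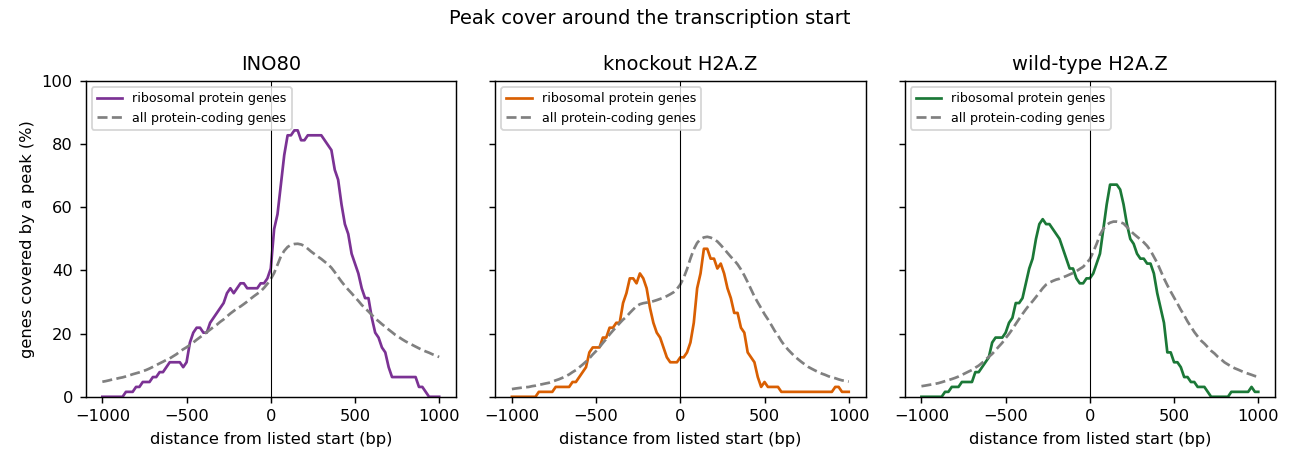
Percent of genes covered by a peak (vertical axis) at each distance from the listed transcription start (horizontal axis, bp; negative is upstream), for INO80, knockout H2A.Z and wild-type H2A.Z, with 64 ribosomal protein genes as solid lines and all 17492 genes with a listed start as dashed lines. INO80 cover reaches 84.4% past the start, and the dip of H2A.Z at the start reaches 12.5% at position 0 in the knockout, against 37.5% in the wild type.

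Over the start, H2A.Z was listed at 8 ribosomal protein genes (12.5%) in the knockout, against 35.6% of all genes with a listed start, and at 24 (37.5%) in the wild type, against 43.6% of all. All 8 knockout genes were among the 24 wild-type ones. The other 16 of the 24 (66.7%) had no knockout peak over the start, against 22.6% of all 7624 genes with wild-type H2A.Z over the start. Each of the 16 still had knockout H2A.Z nearby. It lay on both sides of a bare start at 4 genes (Rpl10l, Rpl18, Rpl26 and Rpl31), upstream alone at 7 (Rpl15, Rpl28, Rpl39l, Rplp2, Rps19, Rps21 and Rps9) and downstream alone at 5 (Rpl11, Rpl13, Rps13, Rps24 and Rps3a1).

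The genes that kept a knockout peak over the start were Rpl10a, Rpl12, Rpl34, Rpl35, Rpl37a, Rpl7l1, Rps27 and Rps27l. At Rpl34 a 773 bp peak in the knockout and an 817 bp peak in the wild type had nearly the same ends. At Rpl35 the peaks were 527 bp wide in the knockout and 510 bp in the wild type.

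Wild-type peaks over the start were somewhat narrower at the ribosomal protein genes, with a median of 782.5 bp, against 940 bp over all genes. At matched widths, from 500 bp to just under 1000 bp in the wild type, 15 of 20 ribosomal protein genes had no knockout peak over the start, against 25.1% of 3606 genes. The difference was thus also present at matched widths, and the part of depth or peak calling in it was not tested.

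The promoters of 5 of the 16 genes are given because they show the bare start with knockout H2A.Z on both sides, upstream alone or downstream alone. The 80 bases run from 60 before the listed start to 20 after it, on the gene's strand, from RefSeq (build GRCm38.p6, the assembly that mm10 names). Capitals mark the ETS core CGGAAG, read on either strand, or a pyrimidine run of at least 5 bases beginning with C within 5 bases of the start. The coordinates are chr11:68901506-68901585 on the plus strand for Rpl26, chr1:39367791-39367870 on the plus strand for Rpl31, chr14:18270967-18271046 on the minus strand for Rpl15, chr7:141447591-141447670 on the plus strand for Rplp2 and chr4:136053374-136053453 on the minus strand for Rpl11.
Rpl26: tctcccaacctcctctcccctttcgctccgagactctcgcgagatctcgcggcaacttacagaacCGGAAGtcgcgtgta
Rpl31: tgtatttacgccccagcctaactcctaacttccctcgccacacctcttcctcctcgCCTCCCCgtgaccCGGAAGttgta
Rpl15: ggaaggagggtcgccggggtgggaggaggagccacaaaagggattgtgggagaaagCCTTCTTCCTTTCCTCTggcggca
Rplp2: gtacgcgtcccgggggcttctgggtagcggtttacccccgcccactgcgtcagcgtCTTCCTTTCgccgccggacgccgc
Rpl11: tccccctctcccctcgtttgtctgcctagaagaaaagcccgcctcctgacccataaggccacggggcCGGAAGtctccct

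Positions are given in bp from the start, negative upstream. At Rpl26 the knockout peaks lay at -655 to -178 and at 93 to 357, and the wild-type peak ran unbroken over -697 to 225. INO80 covered the gap, over -764 to 446. At Rpl31, a large-subunit protein at the exit of the peptide tunnel, knockout peaks lay at -420 to -183 and at 88 to 352, while a 787 bp wild-type peak covered the start between them, at -331 to 455. INO80 lay on the gene side of the start alone, at 11 to 632.

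At Rpl15 the knockout peak of 353 bp lay at -566 to -214, while the wild-type peak of 958 bp lay at -613 to 344. At Rplp2 the knockout peak of 197 bp lay at -312 to -116, while the wild-type peak of 810 bp lay at -596 to 213. Rpl11, whose protein binds 5S ribosomal RNA and the p53 regulator Mdm2, had its knockout peak on the other side. The knockout peak of 312 bp lay at 63 to 374, while the wild-type peak of 764 bp lay at -350 to 413.

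Letters of the listed promoters, 250 bases before to 50 after the start, were counted for the 64 genes and for all 17492 genes of the table. The ETS core CGGAAG, or CTTCCG on the other strand, was found in 42 promoters (65.6%), against 21.5% of all. A pyrimidine run of at least 5 bases, beginning with C within 5 bases of the start, was found in 29 (45.3%), against 18.8% of all. Rpl15 has a run of 17 bases and Rpl27a one of 20. The core AAGATGG or CCATCTT, found in sites of the factor YY1, was in 10 (15.6%), against 6.35% of all. The core GGGCGG or CCGCCC, found in Sp1 sites, was in 38 (59.4%), against 46.3% of all. TATAAA or TTTATA was in 8 (12.5%), against 13.3% of all, and CCAAT or ATTGG in 19 (29.7%), against 39.2% of all. GC content was close to that of all promoters, with a median of 57.0% against 56.3%, while the observed-to-expected ratio of CpG was 0.863 against 0.577. Neighbouring matches can share bases, as the pyrimidine run and CTTCCG can, and a match is a description of letters, not a binding site.

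Over the whole window, 8 of the 84 genes had H2A.Z in the wild type and none in the knockout, a class that holds 4.19% of all protein-coding genes, and none had it in the knockout alone, a class that holds 0.621% of all. They included Rpl6, Rpl7a, Rpl21, Rpl24 and Rpl27a of the large subunit and Rps2 and Rps26 of the small subunit. Their widest wild-type peaks were 159 to 432 bp wide, and those of all 77 genes 155 to 1628 bp. INO80 was listed at all 8.

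Rps2, the small-subunit protein also known as uS5, had the widest of these wild-type peaks, 432 bp at 119 to 550 bp past the start, with an INO80 peak of 436 bp over nearly the same bases; the nearest knockout H2A.Z peak lay 2174 bp from the gene. Rpl21 had 400 bp of wild-type H2A.Z and 408 bp of INO80 at the same place, and its nearest knockout peak lay 7855 bp away. At Rpl24 a wild-type peak of 296 bp began 94 bp past the start, beside 493 bp of INO80, and the nearest knockout peak lay 2478 bp away. Rpl24 overlaps the annotated body of Zbtb11.

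At Rpl7a the wild-type peak of 237 bp lay upstream of the start and INO80 covered 893 bp, with the nearest knockout peak 3162 bp from the gene. Its neighbour Med22 lies 43 bp away. Rpl6 had a 159 bp wild-type peak inside 419 bp of INO80 apart from its last bases, and the nearest knockout peak lay 11227 bp away. At Rpl27a, whose wild-type peak was 163 bp wide, the nearest knockout peak lay 79677 bp away. Rps26 had 231 bp of wild-type H2A.Z, and the nearest knockout peak lay 10536 bp away. Among the 41 genes with no other protein-coding gene within 2 kb, 3 had H2A.Z in the wild type alone, and the share over all such protein-coding genes was not computed. These widths lay below the 460 bp median of the wild-type list, and the part of the peak threshold in these absences was not tested.

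At the 69 genes with H2A.Z in both genotypes, the widest knockout peak was the narrower one at 55 (79.7%), against 72.7% of all such genes. The median log2 ratio of widths, knockout over wild type, was -0.34, a fold of 0.790, against -0.17 and 0.889 over all genes. A log2 ratio under -1 was found at 24 of the 69 (34.8%), against 13.1% of all. Where each list had exactly 1 peak at the gene, so that no split peak entered, the same held for 15 of 42 (35.7%), against 9.56% of all such genes. The knockout list as a whole has fewer and narrower peaks, so these values are read against those of all genes.

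**Figure D4:**
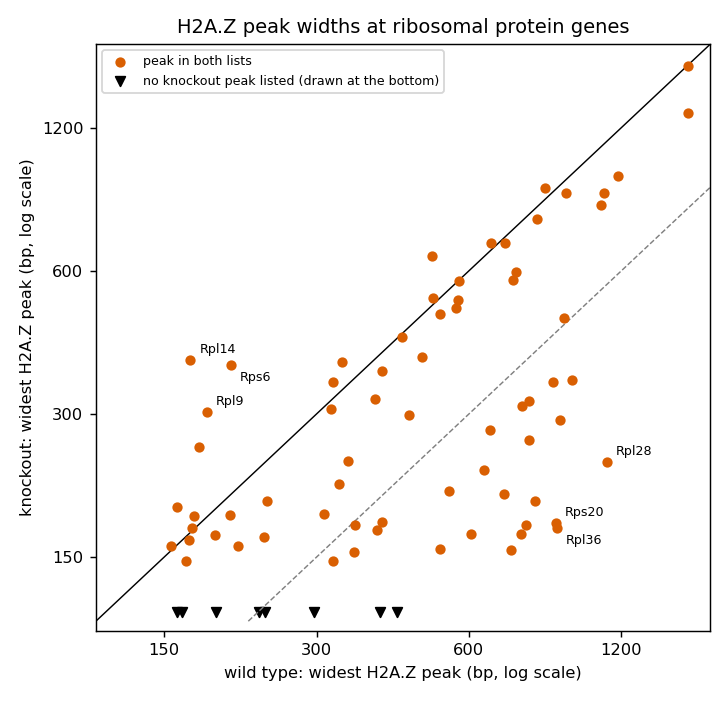
Widest H2A.Z peak at each ribosomal protein gene in the knockout (vertical axis) and in the wild type (horizontal axis), in bp on log scales. The solid line marks equal widths and the dashed line a log2 ratio of -1; 24 of the 69 points lie below the dashed line, and triangles at the bottom mark the 8 genes with no knockout peak, drawn at an arbitrary height.

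The lowest ratios were at Rpl36, Rps20 and Rpl28. At Rpl36 the widest peaks were 173 bp in the knockout and 895 bp in the wild type, a log2 ratio of -2.37, but they lay at opposite ends of the gene. The 895 bp wild-type peak was at the end away from its neighbour Lonp1, where the knockout had peaks of 161 bp and 172 bp. At Rps20, whose nearest protein-coding gene is 35003 bp away, an 891 bp wild-type peak stood where the knockout had peaks of 177 bp and 161 bp, with a log2 ratio of -2.33. Rpl28 had 238 bp of H2A.Z in the knockout, all upstream of the start, and 1125 bp in the wild type that reached 623 bp past it, a log2 ratio of -2.24.

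The highest ratios were at Rpl14, Rps6 and Rpl9. Rpl14 had 390 bp in the knockout and 169 bp in the wild type, with a log2 ratio of 1.21. Rps6, the small-subunit protein phosphorylated by S6 kinase, had 381 bp in the knockout and 203 bp in the wild type, with a log2 ratio of 0.91. At Rpl9 the ratio of 0.74 set a 303 bp knockout peak downstream of the start against a 182 bp wild-type peak upstream of it, so it compares different peaks. At Rpl14 and Rps6 the widest peaks of both genotypes lay on the gene side of the start and overlapped.

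Peak by peak, 66.7% of the 93 INO80 peaks at ribosomal protein genes overlapped a knockout H2A.Z peak, against 82.0% of INO80 peaks at all protein-coding genes. The share that overlapped a wild-type H2A.Z peak was 86.0%, against 86.9%. Of the 100 wild-type H2A.Z peaks, 80 overlapped INO80, against 63.9% at all genes, and 77 overlapped knockout H2A.Z, against 79.3%. INO80 was the wider of the widest peaks at 50 of the 76 genes with INO80 and wild-type H2A.Z (65.8%), against 51.9% of all such genes. The median log2 ratio of INO80 width over wild-type H2A.Z width was 0.30, against 0.04 over all genes.

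The 4 X-linked genes had few peaks. INO80 was listed at none of Rpl10, Rpl36a, Rpl39 and Rps4x, while 28.6% of all X-linked protein-coding genes had it. H2A.Z was listed at 1 of the 4, Rpl39, in both genotypes, against 34.9% of X-linked genes in the knockout and 41.9% in the wild type. Rpl10, Rpl36a and Rps4x had no peak of any list. Their nearest INO80 peaks lay 20676 bp from Rpl10, 13245 bp from Rpl36a and 60563 bp from Rps4x, and that of Rpl39 lay 32860 bp away. These are 4 genes, and the difference from the autosomal genes was not tested.

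The annotation holds an autosomal copy of each X-linked gene. Rpl10 encodes a protein at the core of the large subunit near the peptidyl transferase centre, and Rpl10l is its testis-expressed copy on chromosome 12. Rpl36al, on chromosome 12, is the copy of Rpl36a and lies outside the symbol rule. Rpl39 encodes a small protein lining the peptide tunnel, and Rpl39l is its testis-expressed copy on chromosome 16. Rps4x belongs to the small subunit, and its copy Rps4l on chromosome 6 is annotated as a transcribed pseudogene inside Tmtc1.

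INO80 was listed at these 4 autosomal copies, beside 62.8% of all autosomal protein-coding genes. The 4 are not all the copies of these genes, and of the 13 of pseudogene type, which include Rps4l, 2 had INO80. Rpl10l, whose nearest protein-coding gene is 175018 bp away, had INO80 over 489 bp at the start, at -5 to 483. Its H2A.Z stood in 2 knockout peaks of 225 bp and 291 bp on either side of the start, against a single wild-type peak of 908 bp over it. Rpl39l had 157 bp of INO80 at 8 to 164, a knockout H2A.Z peak of 207 bp at -301 to -95, and a wild-type peak of 548 bp at -341 to 206. The X-linked Rpl39 had H2A.Z upstream of the start alone, 167 bp wide in the knockout and 189 bp in the wild type.

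Rpl36al had INO80 over 1588 bp, knockout H2A.Z in 2 peaks of 159 bp and 369 bp on either side of the start, and a wild-type peak of 1085 bp over it. It lies 91 bp from Mgat2, so these peaks cannot be assigned to 1 of the genes. Rps4l had 340 bp of INO80, 705 bp of knockout H2A.Z and 192 bp of wild-type H2A.Z, and here the knockout peak was the wider one. Thus at Rpl10l, Rpl36al and Rpl39l the start lay under a wild-type peak and under no knockout peak. The table lists no start for Rps4l.

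**Figure D5:**
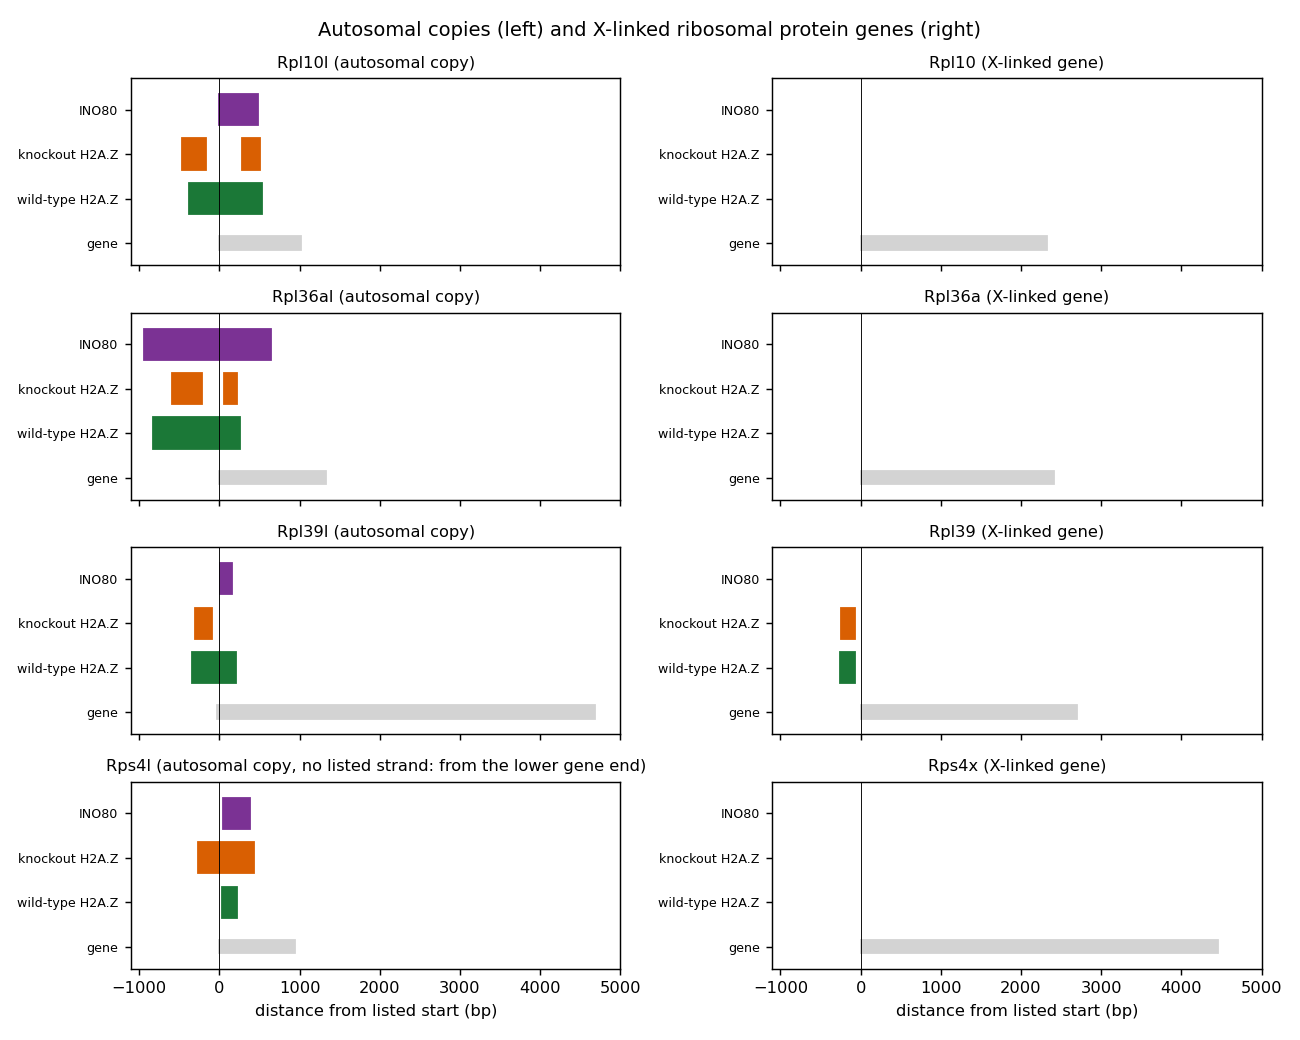
Peaks of INO80, knockout H2A.Z and wild-type H2A.Z as bars along the distance from the listed start (horizontal axis, bp; negative is upstream), with the gene body in grey, for 4 autosomal copies on the left and the X-linked genes on the right. All 3 lists have peaks at the 4 copies, among them a 908 bp wild-type peak and 2 knockout peaks at Rpl10l, and the right side is empty but for the H2A.Z peaks of Rpl39.

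The promoters of these pairs are printed so that the copies with peaks can be read beside the X-linked genes without INO80, in the same 80-base frame with the same capitals. Rps4l has no entry in the table. The coordinates are chr12:66284382-66284461 on the minus strand for Rpl10l, chrX:74270756-74270835 on the plus strand for Rpl10, chr12:69184048-69184127 on the minus strand for Rpl36al, chrX:134585594-134585673 on the plus strand for Rpl36a, chr16:10170168-10170247 on the plus strand for Rpl39l, chrX:37085203-37085282 on the minus strand for Rpl39 and chrX:102189372-102189451 on the minus strand for Rps4x.
Rpl10l: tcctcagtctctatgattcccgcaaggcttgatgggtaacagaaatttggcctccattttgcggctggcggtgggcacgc
Rpl10: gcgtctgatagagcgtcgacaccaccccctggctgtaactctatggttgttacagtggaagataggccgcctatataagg
Rpl36al: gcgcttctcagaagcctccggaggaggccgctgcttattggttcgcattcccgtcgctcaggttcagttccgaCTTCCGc
Rpl36a: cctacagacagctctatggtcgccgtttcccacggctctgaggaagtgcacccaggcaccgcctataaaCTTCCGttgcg
Rpl39l: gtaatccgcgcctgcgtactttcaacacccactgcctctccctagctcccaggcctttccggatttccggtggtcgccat
Rpl39: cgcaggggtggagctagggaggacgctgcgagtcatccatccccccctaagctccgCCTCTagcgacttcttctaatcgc
Rps4x: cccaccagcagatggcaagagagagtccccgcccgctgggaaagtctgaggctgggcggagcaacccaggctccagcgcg

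In this frame the ETS core is in both Rpl36al and Rpl36a, and it is in neither Rpl10l nor Rpl10. A pyrimidine run of 5 bases at the start is marked in Rpl39 alone.

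The 6 listed paralogs of the rule, copies with a diverged protein that are often expressed in few tissues, all had peaks of all 3 lists. Rpl32l, which also matches the rule and is named after Rpl32, is not among these 6 and had no peak of any list. The median widths at the 6 were 337.5 bp for INO80, 558 bp for knockout H2A.Z and 1000 bp for wild-type H2A.Z. Over all 84 genes the medians were 596 bp, 291 bp and 485 bp, so INO80 had the narrowest median at the paralogs and the widest over all 84 genes. Among them Rpl10l and Rpl39l are described above.

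Rps27l, a paralog of Rps27 induced by p53, had 343 bp of INO80, 948 bp of knockout H2A.Z and 1181 bp of wild-type H2A.Z, while Rps27 had 339 bp, 178 bp and 404 bp. At Rpl7l1 the widest INO80 peak, 773 bp, lay beyond the 3 prime end, and a 398 bp peak lay at the start. Its H2A.Z peaks, both over the start, were 825 bp in the knockout and 1092 bp in the wild type. Rpl22l1 had 332 bp, 184 bp and 202 bp of INO80, knockout H2A.Z and wild-type H2A.Z, and its parent Rpl22, which encodes an RNA-binding large-subunit protein, had 443 bp, 308 bp and 321 bp.

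Rpl3l, expressed mainly in muscle, had its widest peaks at or beyond the 3 prime end, and Msrb1 begins 450 bp from the gene. Its only INO80 peak, 251 bp wide (chr17:24736704-24736954), lay wholly outside Rpl3l, past the point where Msrb1 begins. The H2A.Z peaks, 876 bp in the knockout and 1109 bp in the wild type, covered the gene end and also reached past that point. At its own start Rpl3l had 285 bp of knockout and 375 bp of wild-type H2A.Z and no INO80. Its parent Rpl3 had 508 bp of INO80, 570 bp of knockout H2A.Z and 573 bp of wild-type H2A.Z. The wide H2A.Z peaks of Rpl3l and of other genes with close neighbours cannot be assigned to 1 gene.

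Most retrocopies of these families had no listed peak, as most genes of pseudogene type do. INO80 was listed at 14 of 323 (4.33%), against 4.83% of all genes of pseudogene type. Knockout H2A.Z was listed at 32 (9.91%), against 8.31% of all, and wild-type H2A.Z at 53 (16.4%), against 12.0% of all, and 267 of the 323 had no peak of any list. The genes in 65 families with a retrocopy had INO80 at 61, knockout H2A.Z at 53 and wild-type H2A.Z at 60, while a retrocopy with INO80 was found in 8 of the 65 families, with knockout H2A.Z in 19 and with wild-type H2A.Z in 26. The window of a retrocopy is shorter than that of a gene, and reads from near-identical copies may have been lost or shared; how such reads were treated is not given in the sources used here, and its part in these counts was not tested.

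The families differed in these counts. Of 24 retrocopies of Rps12, 1 had INO80, 1 knockout H2A.Z and 3 wild-type H2A.Z. Of 23 retrocopies of Rpl31, 3 had INO80, 2 knockout H2A.Z and 5 wild-type H2A.Z. None of the 14 retrocopies of Rpl7a, the 11 of Rpl17 or the 6 of Rpl10 had a peak of any list. The 12 retrocopies of Rps2 had no INO80, and 5 had knockout H2A.Z and 6 wild-type H2A.Z, although Rps2 itself had no knockout peak. Of the 12 retrocopies of Rpsa, 3 had knockout H2A.Z and 4 wild-type H2A.Z and none INO80, and of the 10 of Rpl36, 2 had INO80, 2 knockout H2A.Z and 4 wild-type H2A.Z.

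The widest peak at a retrocopy was 13113 bp of INO80 beside Rplp0-ps1, which lies inside Flg on chromosome 3; it did not reach the retrocopy itself. The other 13 retrocopies with INO80 had it on their own bodies, and 5 of all 14 lay inside a protein-coding gene. Rpl13-ps3 had INO80 over 1030 bp (chr14:58893510-58894539), with 358 bp of H2A.Z in the knockout and 310 bp in the wild type, and its nearest protein-coding gene was 238868 bp away. Rps4l-ps had 306 bp of INO80, 754 bp of knockout H2A.Z and 581 bp of wild-type H2A.Z, 76468 bp from the nearest protein-coding gene. Rps12-ps10 had 244 bp, 623 bp and 459 bp, and Rps15-ps3 had 278 bp, 187 bp and 645 bp, in the same order of lists.

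Of the 10 retrocopies with the widest peaks, 4 had H2A.Z and no INO80. Rpl30-ps6 had 679 bp of H2A.Z in the knockout and 1023 bp in the wild type. Rpsa-ps1 had a peak of the smallest listed width in the knockout and 801 bp in the wild type, and Rps2-ps7 had 611 bp in the knockout and 777 bp in the wild type. At Rpl10a-ps1 the peaks were 611 bp wide in the knockout and 576 bp in the wild type. Of the 13 retrocopies of X-linked ribosomal protein genes, 2 had peaks, and both, Rps4l and Rps4l-ps, come from Rps4x and had all 3 lists. Of the 9 retrocopies annotated as transcribed, Rps4l alone had INO80.

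Genes that work with the ribosomal proteins were read from 4 further lists. The shares over all protein-coding genes, beside which their counts are to be read, are 60.6% for INO80, 67.3% for knockout H2A.Z and 70.8% for wild-type H2A.Z. Of 24 genes for ribosome assembly, 23 had INO80, 23 knockout H2A.Z and 24 wild-type H2A.Z. Dkc1, the X-linked pseudouridine synthase, lacked INO80 but had 621 bp of H2A.Z in the knockout and 223 bp in the wild type. Nop58, of the box C/D particles, had INO80 over 427 bp and no knockout H2A.Z, with 178 bp in the wild type. The widest INO80 peaks of this list were 4373 bp at Ubtf, the RNA polymerase I factor, and 1995 bp at Tsr1. The median of the widest INO80 peaks was 419 bp here, narrower than the 596 bp of the ribosomal protein genes.

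Of 17 genes for translation factors and other proteins known or thought to have TOP messages, among them Npm1, Hnrnpa1, Naca and Tpt1, 16 had INO80, 13 knockout H2A.Z and 15 wild-type H2A.Z. Eif2s3y, on the Y chromosome, had no peak. Eef2, which moves the ribosome along the message, had INO80 over 542 bp and no H2A.Z in either genotype. Eef1g had 432 bp of INO80 and Eif2s3x 220 bp, and both had wild-type H2A.Z (a peak of the smallest listed width and one of 345 bp) and none in the knockout. The widest INO80 peaks were at Eef1d (2026 bp), Eef1a2 (2010 bp) and Pabpc1, the poly(A)-binding protein (1742 bp). The median of the widest INO80 peaks in this list was 827 bp.

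All 6 genes of a list of regulators, which includes the p53 ubiquitin ligase gene Mdm2, had peaks of the 3 lists, with INO80 widest at Larp1, which binds the TOP motif (1942 bp). Among 6 genes of ribosomal and associated proteins that the symbol rule leaves out, 4 had INO80, 3 knockout H2A.Z and 4 wild-type H2A.Z. Rack1, a scaffold on the small subunit, and Rps27rt had no peak of any list. Fau, which encodes a ubiquitin-like fusion of a small-subunit protein, had 265 bp of INO80, no knockout H2A.Z and 173 bp of wild-type H2A.Z.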

How the data were processed

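The authors deposited 3 peak lists, 1 per ChIP group, each with chromosome, start and end alone and no score. The submitters' processing notes name Bowtie2, SAMtools, deepTools, MACS2 and mm10. Not given in the sources used here are the roles and versions of the tools, the peak threshold, the control, the joining of the libraries in a group and the depth, so no precision can be stated. Per the labels' protocols, chromatin was cut with micrococcal nuclease, so peak outlines follow nucleosomes as well as binding. Whether libraries of 1 group stem from separate animals is not in the labels. The inputs and single libraries were not analysed here.

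Gene positions and pseudogene types came from the RefSeq gene table of GRCm38.p6, and starts and promoter letters from the RefSeq promoter table of that build, which listed 64 of the 84 genes. Of several starts the one nearest the outer end of the gene was used. The genes without a listed start included Rpl17, Rpl21, Rpl23a, Rpl29, Rpl3, Rpl30, Rpl32, Rpl36, Rpl7, Rpl8, Rplp1, Rps14, Rps20, Rps27a and Rps29. Retrocopies were genes of pseudogene type with a ribosomal protein symbol; 1 more matched no gene of the rule. A peak counted when at least 1 bp lay in the gene or within 1 kb. Counts were read against the share of all protein-coding genes, or of all genes of pseudogene type, where that share was computed, and no test was made. The genes, lists and alternatives were chosen with earlier results of these data known. Named are the genes lacking a peak, the widest and narrowest INO80 peaks, the extreme width ratios, paralogs with their parents, X-linked genes and up to 10 retrocopies; the genes described for the state of their start and the retrocopy families were chosen after their values were seen. Scripts ran in Python 3.11.15 with pandas 2.3.3, numpy 2.4.6 and matplotlib 3.10.9. The overlap step was tested on simulated data, and its counts equalled those of bedtools 2.31.1 for 3 of 3 lists. Values of a few single genes that the naming rule covers are not reported here, though counts and medians include them.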

Additional observations from a re-analysis of the deposited data

How the results depend on the processing

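Windows of 500 bp or 3 kb, the gene body alone, 1 kb around the start, an overlap of at least the smallest peak width, the widest 50% of each list and genes with no other protein-coding gene within 2 kb were tried. Of 69 alternative values, 52 stayed within 1.5 times the stated count (or within the interval of the median). A count cannot change sign, so a reversal was possible only for the median log2 width ratio, which stayed negative in all settings. With 3 kb, 28 retrocopies had INO80. With the gene body alone, 1 gene had H2A.Z in the knockout alone and 18 in the wild type alone. With the widest 50% of each list, INO80 was at 33 genes, knockout H2A.Z at 20 and wild-type H2A.Z at 39, with 1 gene in the knockout alone and 20 in the wild type alone; retrocopies had 2, 9 and 9, and the median log2 width ratio was -0.11. With no gene within 2 kb, which leaves 41 genes and 237 retrocopies, the counts were 39, 36 and 39, with 3 genes in the wild type alone, and 9 retrocopies had INO80. Fewer peaks or genes enter by construction in these last settings, and the cause of the other shifts was not tested. Of all these settings, only 1 kb around the start has a share over all protein-coding genes. The counts of the others therefore cannot show whether the ribosomal protein genes differ from all genes there. Chosen after seeing the data, the innermost listed start gave INO80, knockout and wild-type H2A.Z over the start at 29, 8 and 24 genes, the widest 50% gave 23, 7 and 23, and retrocopies with copies outside pseudogene type gave 15, 33 and 55. The alternative that uses protein length was not run, and no retrocopy has a listed start. No paired analysis was possible because each group has 1 list for both libraries, so no replicate could be left out either.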
